A study of Drosophila melanogaster with 2 samples.

Results

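Bound divergent promoters are places where the tagged protein CG32772-eGFP was found at the shared promoter region of a pair of neighbouring protein-coding genes that are transcribed away from each other. A summit, the position of highest signal of a peak, was kept when it lay within 500 bp of an annotated transcription start site and the nearest protein-coding gene had its first start site within 500 bp of the first start site of an oppositely oriented protein-coding gene. This rule kept 658 of the 4699 summits on the chromosome arms (14.0%) and 32.7% of the 2011 summits at promoters. The other promoter summits, 1353 in number, had no such partner gene, and 2688 summits lay away from promoters. Signal played no part in the choice beyond the authors' own peak threshold.

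The data are chromatin immunoprecipitation and sequencing (ChIP-seq) peaks from whole Drosophila melanogaster embryos aged 0 to 24 h, from a transgenic strain that carries an insertion expressing CG32772 fused to eGFP. The precipitation used an antibody against the GFP tag, although the antibody label names the protein itself. There were 2 biological replicates of this 1 group, both with the tagged protein, and no other genotype, stage or treatment was analysed here. Every stage and cell type of the embryo is mixed in these samples, so a site bound in a few cells and a site bound weakly in many cannot be told apart. Positions are those of the dm6 assembly. Only peak lists were analysed, and the sequencing depth is unknown.

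In a compact genome such as that of Drosophila, many housekeeping genes lie head to head and share the short stretch between their start sites, from which transcription leaves in both directions. Housekeeping promoters of the fly typically carry the DNA replication-related element (DRE), the Ohler motifs known as Motif 1, Motif 6 and Motif 7, and the short CGATA core recognised by the insulator protein BEAF-32, whereas developmental promoters more often carry a TATA box or an Initiator. The stretch upstream of an active start site is usually depleted of nucleosomes and is often rich in A and T.

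The stretches between the start sites of 6 strongly bound pairs are shown because each holds its summit near the middle. They come from the 15 strongest kept summits found in both libraries' own lists, and are at most 300 bp long and free of annotated exons. Sequences are the plus strand of the RefSeq copy of dm6, written from the base after the start site of the minus-strand gene to the base before that of the plus-strand gene, and capitals mark the 21 bases centred on the summit.
CG7601/CIA30: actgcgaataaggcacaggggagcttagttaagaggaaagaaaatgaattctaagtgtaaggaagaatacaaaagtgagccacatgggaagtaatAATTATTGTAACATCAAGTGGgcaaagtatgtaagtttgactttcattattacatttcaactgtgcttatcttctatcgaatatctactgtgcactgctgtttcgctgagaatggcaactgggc
Tcs5/CHMP2B: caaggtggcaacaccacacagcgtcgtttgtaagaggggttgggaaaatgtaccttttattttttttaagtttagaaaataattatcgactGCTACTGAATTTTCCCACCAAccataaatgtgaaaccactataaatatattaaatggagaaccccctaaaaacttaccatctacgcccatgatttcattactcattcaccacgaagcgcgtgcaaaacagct
Art3/mRpS10: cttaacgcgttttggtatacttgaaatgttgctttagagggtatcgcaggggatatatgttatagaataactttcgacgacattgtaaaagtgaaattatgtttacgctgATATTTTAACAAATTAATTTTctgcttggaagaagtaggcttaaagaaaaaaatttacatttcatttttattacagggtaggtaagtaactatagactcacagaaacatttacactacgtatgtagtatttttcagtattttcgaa
Atat/Shc: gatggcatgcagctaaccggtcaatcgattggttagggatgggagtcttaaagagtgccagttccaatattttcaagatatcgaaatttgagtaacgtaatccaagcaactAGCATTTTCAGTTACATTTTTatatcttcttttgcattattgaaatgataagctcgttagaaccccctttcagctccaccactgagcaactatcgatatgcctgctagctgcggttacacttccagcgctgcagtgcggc
CG13390/CG17294: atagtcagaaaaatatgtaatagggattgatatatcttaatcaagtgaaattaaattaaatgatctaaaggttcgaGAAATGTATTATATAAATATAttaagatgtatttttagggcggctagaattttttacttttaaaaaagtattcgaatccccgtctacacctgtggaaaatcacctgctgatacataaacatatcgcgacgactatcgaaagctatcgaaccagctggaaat
fws/Lamtor3: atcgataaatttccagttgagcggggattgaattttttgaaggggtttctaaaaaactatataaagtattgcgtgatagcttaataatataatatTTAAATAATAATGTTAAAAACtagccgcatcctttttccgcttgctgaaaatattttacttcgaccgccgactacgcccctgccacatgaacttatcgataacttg

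The first, between CG7601 and CIA30 at chr3R:29736746-29736964, spans 219 bp with its summit at base 106. The stretch between Tcs5 and CHMP2B is chr3L:5139396-5139618 and spans 223 bp. That between Art3 and mRpS10 is chr3R:15229409-15229664 and spans 256 bp. The remaining stretches are chr3L:9426759-9427009 between Atat and Shc, chr2L:8376798-8377034 between CG13390 and CG17294, and chr2L:17481030-17481230 between fws and Lamtor3. Their content of G and C ranged from 30.1% in Art3/mRpS10 to 43.0% in Atat/Shc. The DRE (TATCGATA) was matched in the Atat/Shc and fws/Lamtor3 stretches, and Motif 7 in the Atat/Shc stretch alone of these 6. None of the printed DRE matches lies within the capitals.

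Divergent pairs held a summit more often than genes without a partner. The annotation had 13968 protein-coding genes, of which 3481 formed 1814 divergent pairs, and 110 of these genes were in more than 1 pair. A pair was called bound when a kept summit lay within 500 bp of the first start site of either of its genes, which was so for 527 pairs (29.1%, exact 95% interval 27 to 31.2%). In 1179 pairs no summit lay within 500 bp of any start site of either gene, and these are called unbound. A further 108 pairs had a summit only at another start site or one assigned to another gene and were put in neither class. Among the 10487 genes without a partner, 1012 (9.65%) had a summit within 500 bp of the first start site. A pair offers a longer window than a single gene. Per megabase of window there were 234 bound pairs against 96.4 bound genes without a partner. This allows for the length of the window, but not for a pair having the first start sites of both its genes. Over all protein-coding genes and any of their start sites the bound share was 17.1%.

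Each library alone gave fewer bound pairs. In the own list of replicate 1, 419 pairs were bound (23.1%), and in that of replicate 2, 446 pairs (24.6%). Of the 527 bound pairs, 350 (66.4%) were also bound in both own lists. The own lists held 497 kept summits of 3012 in replicate 1 and 541 of 3537 in replicate 2. Regions are not replicates of a condition, so the differences here were not tested. They are set beside exact intervals, which cover counting error only, and beside the values of each library.

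Bound shares differed between the chromosome arms. On 3L 34.2% of 360 pairs were bound (interval 29.3 to 39.3%), on 3R 30.7% of 502 and on 2L 30% of 357. The lowest shares of the large arms were on X, with 24.6% of 260 pairs (interval 19.5 to 30.3%), and on 2R, with 23.9% of 330 (interval 19.4 to 28.9%). The intervals of 3L and 2R do not overlap, while those of 3L and X do. The fourth chromosome has 5 pairs, of which 0 were bound, too few to give a share.

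The distance between the start sites went with the bound share in steps rather than evenly. Of pairs with start sites 1 to 200 bp apart, 20.6% were bound (143 of 693, interval 17.7 to 23.8%). From above 200 to 300 bp the share was 37.7% (187 of 496, interval 33.4 to 42.1%), and from above 300 to 500 bp it was 31.5% (197 of 625, interval 27.9 to 35.3%). The intervals of the first 2 classes do not overlap. In what follows these classes are written 200 to 300 bp and 300 to 500 bp, and neither includes its lower bound. In steps of 50 bp the sharpest change lay at 200 bp. Only 23 of 140 pairs (16.4%) from above 150 to 200 bp were bound, and 90 of 221 (40.7%) from above 200 to 250 bp. Both libraries had the same step in their own lists. In the step below 200 bp 10.7% of pairs were bound in replicate 1 and 14.3% in replicate 2, and in the step above it 36.7% in replicate 1 and 36.2% in replicate 2.

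**Figure D1:**
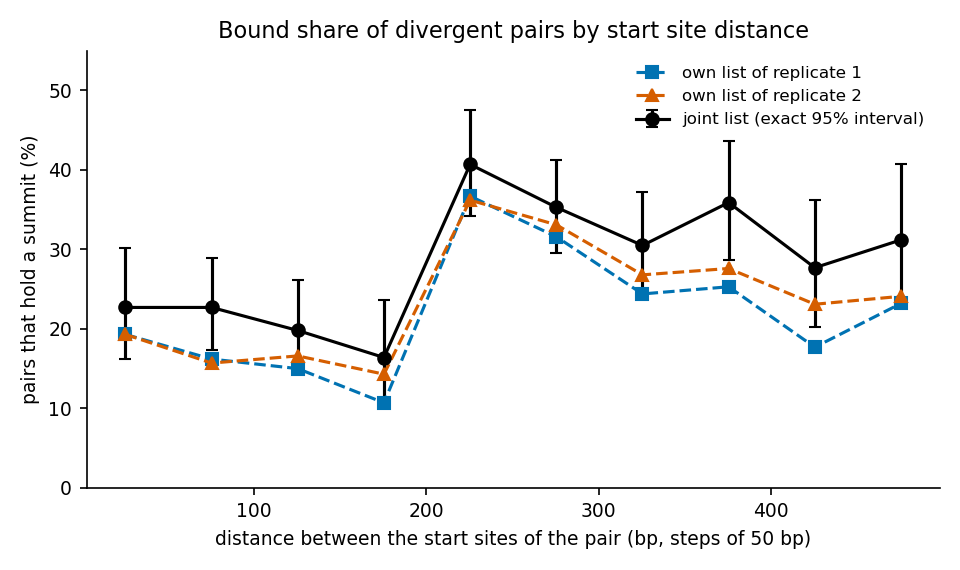
Share of divergent pairs that hold a kept summit (vertical axis, %) by the distance between the start sites of the pair (horizontal axis, bp, in steps of 50 bp), for the joint list with exact 95% intervals and for each library's own list. The joint share is 16.4% in the step below 200 bp and 40.7% in the step above it, and the lines of both libraries make the same step.

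On each large arm, pairs 200 to 300 bp apart had a higher bound share than pairs of all other distances together, with unequal size. The other distances include the low class up to 200 bp, and wider pairs alone were not compared by arm. On 2L 45.5% of pairs of that distance were bound against 24.9% of pairs of other distances, and on 3R 42.1% against 26.9%. The shares on 3L were 40.7% against 31.0%, and on 2R 29.4% against 22.0%. On X they were 26.9% against 23.6%, the smallest gap of the 5 arms. The share is lower again beyond 300 bp, and the median distance was 263 bp in bound pairs (quartiles 173 to 351) and 238 bp in unbound pairs (quartiles 112 to 334). The sign of that difference depends on how far apart a pair may lie, and it is therefore not used below. The tightest bound pair was CG11710/mal on X, with start sites 2 bp apart and a signal of 151.6, where mal encodes the maroon-like molybdenum cofactor sulfurase. The widest was su(Hw)/Polr2I on 3R at 500 bp with a signal of 71.8, where su(Hw) encodes an insulator protein and Polr2I a subunit of RNA polymerase II. Just inside the limit, Obp93a/Ice2 at 499 bp and Plzf/PLCXD and Snap24/CG8478 at 500 bp were unbound, and if/mRpL22 at 499 bp was in neither class. Just outside it, Meics/ssp2 was bound with a signal of 68.2 and Meics/Nxf3 was in neither class, both 1 bp beyond the limit, and CG10344/ppk12 and CG16868/CG34199 at 502 bp and CG6409/galla-2 at 504 bp were unbound. Of all pairs from above 500 to 1000 bp apart, 143 of 621 (23.0%) were bound.

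Within a bound pair the summit usually lay between the start sites. Of the 658 kept summits, 564 were within 500 bp of a first start site of their pair, and 398 of these (70.6%, interval 66.6 to 74.3%) lay between the start sites. The bases between the start sites are 20.6% of the bases within 500 bp of either one. Neither gene was favoured by its strand, since 276 summits were nearer to the minus-strand start, 284 nearer to the plus-strand start and 4 equally near.

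Summit position followed the distance between the start sites. In pairs 200 to 300 bp apart, 169 of 196 summits (86.2%) lay between the start sites, and the median distance from the midpoint was 31.5 bp. In pairs over 400 bp apart, 83.3% lay between, but the median distance from the midpoint was 131.75 bp, so the summit sat towards one gene. In these wide pairs it was a median of 90.5 bp upstream of the nearer start site, close to the 92.5 bp of the pairs 200 to 300 bp apart. For all pairs over 200 bp apart, 279 of 412 summits (67.7%, interval 63 to 72.2%) lay 50 to 150 bp upstream of the nearer start site. From above 300 to 400 bp and above 400 to 500 bp the median upstream position was 97 and 90.5 bp. The median distance from the midpoint rose there from 77.25 to 131.75 bp. From above 200 to 250 bp and above 250 to 300 bp the upstream position was 78 and 104.5 bp, and the distance from the midpoint 32.25 and 30 bp. Between start sites so near each other, a fixed upstream position and a place at the midpoint cannot be told apart.

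In tight pairs the summit often lay inside 1 gene, and thereby upstream of the other. Of the 87 summits at pairs 1 to 100 bp apart, 18 (20.7%) were between the start sites, and the median summit was 69 bp downstream of the nearer start site. At 1 to 50 bp only 2 of 36 were between, and the median distance from the midpoint was 112.75 bp. At Pex11ab/CG8320, for example, the summit lay 78 bp inside CG8320 and 111 bp upstream of Pex11ab. The median signal was 222.9 in pairs 1 to 50 bp apart and 110.8 in pairs above 50 to 100 bp apart. Over both it was 140.8, against 140.9 for all kept summits.

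**Figure D2:**
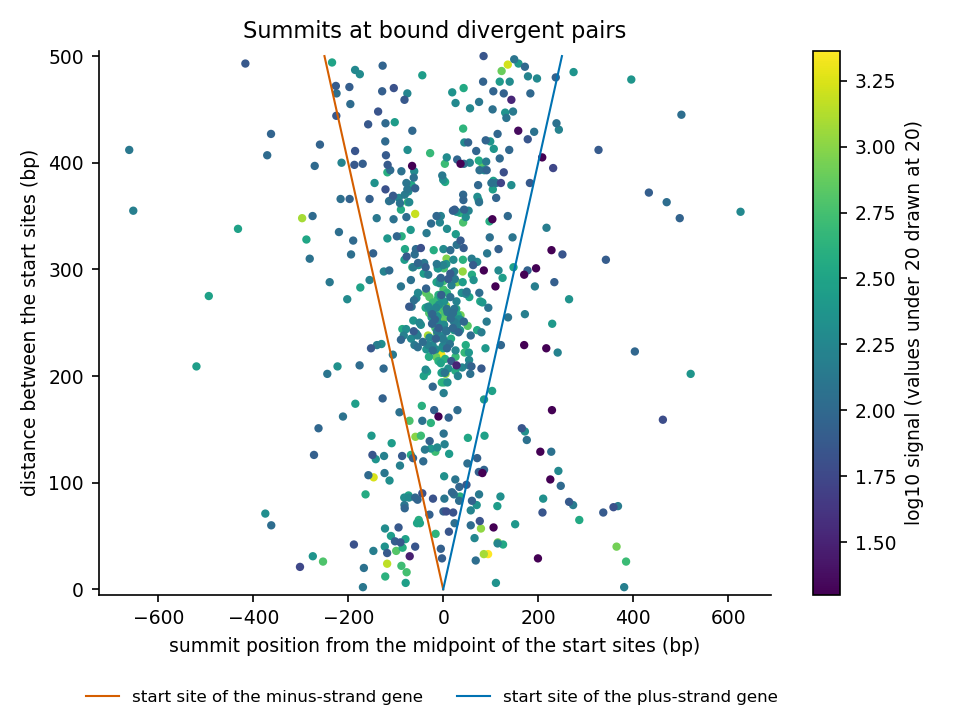
Position of each of the 564 kept summits at a pair relative to the midpoint of its start sites (horizontal axis, bp, plus-strand gene to the right) against the distance between the start sites (vertical axis, bp), coloured by log10 signal. The lines mark the start sites. Summits gather at the midpoint for distances above 200 and up to 300 bp, and those of wider pairs fall into arms that run along the lines.

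Compared with promoter summits without a partner, the kept summits lay in a narrower range of distances from the nearest protein-coding start site. Of 653 kept summits with such a site within 500 bp, 334 (51.1%, interval 47.2 to 55%) lay 50 to 150 bp upstream of it, against 326 of 1238 (26.3%, interval 23.9 to 28.9%) without a partner. The shares on the upstream side were alike, at 77.5% and 78.7%. The median position was 82 bp upstream for kept summits and 126.5 bp upstream for promoter summits without a partner. In a pair, sequence far upstream of one gene is near the start of the other, and what this layout adds to the difference was not tested.

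The other 94 kept summits were assigned to a pair by their nearest gene but lay over 500 bp from its first start sites. Of these, 89 were within 500 bp of a protein-coding start site, a later one of the same gene. They include a strong summit of px, the wing vein gene plexus, 47761 bp from the nearer first start site of px/CG11362 with a signal of 1582. Another, with a signal of 1191, was assigned to phol/CG3552 by a later start site of CG3552. It lay 1484 bp downstream of the first start site of CG3552. It is not at the start of phol, the other gene, which encodes a DNA-binding protein of the Polycomb system. The median signal of the 94 summits was 122.8. They count as kept summits by the rule but are not in the counts of bound pairs.

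In 36 bound pairs more than 1 kept summit was present, and rno/mri on 3L had 3 with signals of 135.0, 203.4 and 97.1 over 800 bp. The median spread over the 36 pairs was 205.5 bp. Among the kept summits, 30 lay within 250 bp of a stronger summit of the list, and all 30 were on its right-hand side in genome coordinates. These 30 include all 19 kept summits with a signal under 20, which lay 199 to 221 bp from the stronger one. With summits within 1 kb counted once there were 597 kept summits, and 28.6% of pairs were bound in place of 29.1%.

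Kept summits had a higher signal than the other classes. Their median was 140.9 (quartiles 94.5 to 254.7, highest 2310), against 128.9 for promoter summits without a partner, 106.3 for summits away from promoters and 115.4 for all arm summits. In replicate 1 the medians of its own list were 93.7 for kept summits, 83.1 without a partner and 71.4 away from promoters. In replicate 2 they were 91.3, 84.0 and 72.4 in the same order of classes. The order of classes was the same in the 3 lists, but the quartiles overlap widely. Signals are the authors' values with an unstated scaling and were compared within a list only. Kept summits made up 30% of the 100 strongest arm summits, 24.2% of the 500 strongest and 20.9% of the 1000 strongest, against 14.0% of the whole list. Promoter summits without a partner made up 42% of the 100 strongest, 39.6% of the 500 strongest and 34.5% of the 1000 strongest, while they are 1353 of the 4699 arm summits.

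Support from the libraries separately was also more frequent. Of the kept summits, 416 (63.2%, interval 59.4 to 66.9%) overlapped a peak of both own lists, against 56.7% (interval 54 to 59.3%) without a partner and 45.0% (interval 43.1 to 46.9%) away from promoters. A further 66 were in the own list of replicate 1 alone and 77 in that of replicate 2 alone. The remaining 99 (15%) were in neither own list, and their signals were low, with a median of 78.0 against 211.6 for those in both. Among the 653 kept summits with a call in both libraries' ranked lists, signals went together across sites, with a Spearman rho of 0.873 and a Pearson r of 0.927 on log10 values. These describe sites of 1 joint list, called from the same libraries. In the 416 summits of both lists the libraries' own summits lay a median of 14 bp apart (quartiles 5 to 35).

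**Figure D3:**
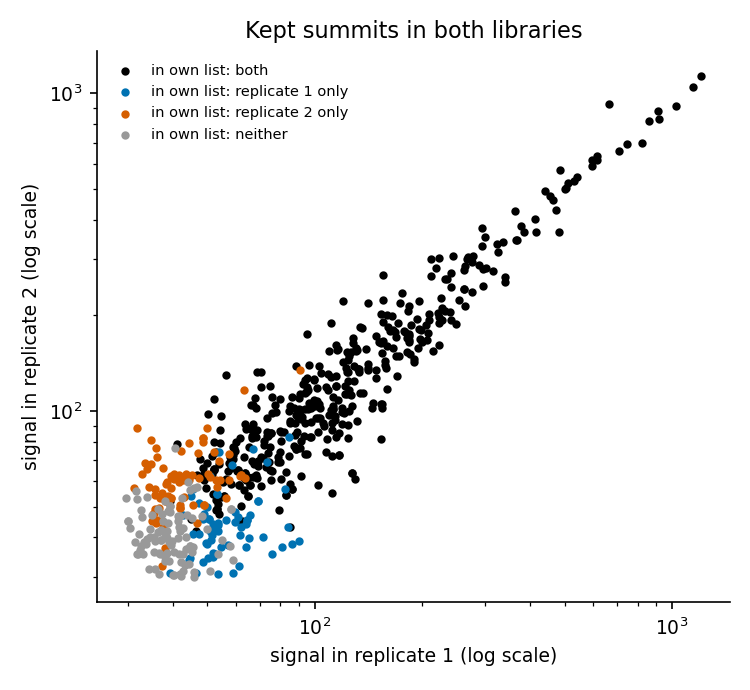
Signal of the strongest overlapping call in replicate 1 (horizontal axis, log scale) and replicate 2 (vertical axis, log scale) for the 653 kept summits with a call in both, coloured by whether the summit overlaps a peak of each library's own thresholded list. Summits in neither own list sit at the low end of both axes.

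The strongest sites held nearly the same place in both libraries. The strongest kept summit was at Pex11ab/CG8320 on 2R, with a joint signal of 2310 (rank 4 of the arm summits), 1204 in replicate 1 and 1136 in replicate 2. Pex11ab encodes a peroxisomal membrane protein, and its start site lies 33 bp from that of CG8320. Next came CG7601/CIA30 with 2163, where CIA30 is named for a mitochondrial complex I assembly factor, and Tcs5/CHMP2B with 1925, where CHMP2B belongs to the ESCRT-III membrane-remodelling complex. In both of these the summit is within 10 bp of the midpoint. Art3/mRpS10, a protein arginine methyltransferase gene beside a mitochondrial ribosomal protein gene, had a signal of 1799, with 915.3 in replicate 1 and 878.6 in replicate 2.

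Chro/Ssl1 had a signal of 1724, with 919.1 in replicate 1 and 830.9 in replicate 2. Chro encodes the chromodomain protein Chromator, found at interbands and domain borders, and Ssl1 a subunit of the general factor TFIIH. The summit lies 94 bp inside Chro. Further down were mRpS23/CenG1A with 1672, the px/CG11362 summit already given, mRpL23/CG9004 with 1430 and Atat/Shc with 1359, where Atat encodes an alpha-tubulin acetyltransferase and Shc an adaptor of receptor tyrosine kinases. The list closed with CG13390/CG17294 at 1241, tank/CG12194 at 1227, CG1275/Elp5 at 1209, the phol/CG3552 summit already given and fws/Lamtor3 at 1081. Elp5 is an Elongator subunit, fws a subunit of the Golgi tethering complex COG and Lamtor3 a part of the lysosomal Ragulator.

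All 15 had ranks of 37 or better in the joint list and of 45 or better in each library's own ranked list. The largest gap between libraries was at px/CG11362, with 664.6 in replicate 1 and 925.6 in replicate 2. In 8 of the 15 the summit lay between the start sites, and 2 summits lay away from their pair. Of the others, 6 were at pairs with start sites 200 to 300 bp apart.

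The genes of bound pairs were looked at by role, in lists chosen with earlier results of these data known. The lists were built from symbols and name patterns, so a list can hold genes of another role. Of the 3481 genes in divergent pairs, 1054 (30.3%) were in a bound pair, and each list is read against that share. Over genes without a partner, counting any start site, 11.9% had a summit. A gene list in this setting is small, and no list was tested.

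Ribosomal protein genes were frequent on both counts. Of 35 cytosolic ribosomal protein genes in pairs, 18 (51.4%, interval 34 to 68.6%) were in a bound pair, and of the 57 without a partner 26 (45.6%) had a summit. The highest signals were at RpS27/Nup37 (515.3), RpL34b/CG8132 (507.7) and RpL32/CG7943 (404.6). Mitochondrial ribosomal protein genes differed in this respect. Of their 73 genes 51 (69.9%) were in pairs, of which 20 (39.2%, interval 25.8 to 53.9%) were in a bound pair, while 1 of the 22 without a partner had a summit. The strongest were the Art3/mRpS10, mRpS23/CenG1A and mRpL23/CG9004 pairs already given.

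Other genes of protein synthesis differed among themselves. Among aminoacyl-tRNA synthetase genes, which charge tRNAs, 10 of 20 in pairs were in a bound pair (50%, interval 27.2 to 72.8%), led by GluProRS/AP-1sigma (575.5), Hem/IleRS (352.8) and LysRS/Hecw (320.2). Of the 13 without a partner 1 had a summit. Translation factor genes gave 6 of 19, with eIF5B/CG46463 (304.0), Rbbp5/eRF1 (240.6) and RpL28/eIF1 (224.8) the strongest. The list of ribosome and rRNA maturation gave 2 of 13 (15.4%), namely Rrp1/gammaTub23C (279.0) and Rrp6/CG33331 (104.4). Rrp1 is in that list by its name only, since it encodes a DNA repair enzyme. The interval of each of these lists includes the background of 30.3%.

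Mitochondrial genes outside the ribosome did not stand above it. Oxidative phosphorylation subunits gave 10 of 33 (30.3%), led by corolla/ND-24 (344.2), ND-51/CG13994 (165.6) and IFT52/COX5B (162.8). Mitochondrial import genes gave 0 of 4.

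Genes of transcription and RNA handling were mixed. The list of RNA polymerase subunits, general factors and Mediator gave 18 of 52 (34.6%), with Taf5/Pex6 (580.9), Wdr24/IntS11 (545.0) and elm/MED27 (435.5) at the top. It also holds subunits of the Integrator complex, among them IntS11. Spliceosome genes gave 6 of 24, led by Sf3b6/Tnpo (263.7), Sf3a2/CG42588 (182.9) and snRNP-U1-C/gukh (128.8). Nuclear pore and export genes gave 7 of 16, led by RpS27/Nup37 and followed by Nup98-96/mbc (254.3) and Nup93-2/CG3817 (175.5). These shares, too, had intervals that include the background.

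The list of insulator and promoter-binding proteins had the highest share. Of 13 such genes in pairs, 10 were in a bound pair (76.9%, interval 46.2 to 95%), and this and the cytosolic ribosomal proteins were the 2 lists of 23 whose interval lay wholly above 30.3%. Of the 10 such genes without a partner 5 (50%) had a summit, against 11.9% of all genes without a partner, so the list was high outside pairs too. The strongest were Chro/Ssl1, then Cp190/CG4338 (579.0), where Cp190 is a shared cofactor of insulator complexes, and TH1/mei-41 (524.4), where TH1 is a subunit of the negative elongation factor NELF. CG12974/pzg (269.1) and Nelf-E/RpL14 (267.0) followed and were in both own lists. The other 5, M1BP/CG8202 (113.9), CG3337/Nelf-A (103.9), Dref/RpL13 (91.8), Parg/Mnt (87.2) and su(Hw)/Polr2I (71.8), were in none or 1 of the own lists. M1BP and Dref encode the factors that recognise Motif 1 and the DRE. The share thus rests on 13 genes, and 5 of the 10 calls were in both libraries' own lists. TH1, Nelf-E and Nelf-A are in the list as subunits of NELF and are not insulator proteins. The pairs Nelf-E/RpL14 and Dref/RpL13 also count for the cytosolic ribosomal proteins, so the 2 lists are not separate observations.

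Several well-known genes of chromatin regulators were in bound pairs, in 2 lists whose intervals include the background of 30.3%. Of 7 Polycomb group genes in pairs, 4 were in a bound pair (57.1%, interval 18.4 to 90.1%). E(z)/Cnep1r2 (562.5), Su(z)12/Pfdn6 (216.9) and Sfmbt/CG5439 (112.0) were in both own lists, and Uch-L5/Jarid2 (85.2) in that of replicate 2. E(z) and Su(z)12 encode core subunits of Polycomb repressive complex 2. Of 16 Trithorax group and remodeller genes 5 were in a bound pair (31.2%, interval 11 to 58.7%). Among them brm/Arl1, with the ATPase of the SWI/SNF complex, had a signal of 1029 (509.9 in replicate 1 and 521.7 in replicate 2), followed by Ino80/Aptx (452.3) and fs(1)h/mys (283.1).

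Genes of protein turnover and membrane traffic gave further strong sites, in lists whose intervals all include the background of 30.3%. Proteasome genes gave 5 of 20, led by l(2)37Bb/Rpn3 (268.3), mRpL39/Prosbeta2 (148.8) and Hat1/Rpn5 (129.9). Ubiquitin enzymes and adaptors gave 10 of 26, led by Fbw5/CG9147 (924.4), tum/Uba3 (363.8) and Fbxl4/Dus2 (353.2). Vesicle transport genes gave 23 of 59 (39.0%), led by alphaCOP/CG13919 (484.8), Fur1/Vps33B (436.2) and PIG-A/Vps50 (407.6). Autophagy and peroxisome genes gave 10 of 19 (52.6%, interval 28.9 to 75.6%). After Pex11ab/CG8320 their strongest pairs were Taf5/Pex6 and CG12093/Atg2 (395.0), where Pex6 is an ATPase of peroxisomal import and Atg2 a lipid transfer protein of autophagosome growth.

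Cell division and genome maintenance genes were near the background. The list of DNA replication and cell cycle genes gave 7 of 25, led by orb/Cdc16 (393.1), cni/fzy (203.5) and SAK/Cdk12 (188.1). It also holds Cdk12, Cdc5 and Cdc37, whose main roles are in transcription, splicing and protein folding. DNA repair genes gave 9 of 23, led by TH1/mei-41, with mrva/mus312 (223.3) and tefu/Hsc70-4 (188.0) next, where mei-41 and tefu encode the fly ATR and ATM kinases. Kinetochore, spindle and centrosome genes gave 8 of 24, led by Kmn2/CG2698 (752.0), Faf2/Grip71 (592.9) and DIP2/wac (160.5).

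Few tissue-restricted and developmental genes form pairs at all, so their bound shares say little. Of these lists only the chemosensory one had an interval below the background of 30.3%. Of 48 patterning transcription factor genes 1 was in a pair, and it was not in a bound one (interval 0 to 97.5%). Of the 47 without a partner 8 (17.0%) had a summit, against 11.9% of all genes without a partner. Of 230 chemosensory receptor and odorant-binding protein genes 21 were in pairs, and 1 of these was in a bound pair (4.76%, interval 0.12 to 23.8%). That pair was Gr97a/CG5521 with a signal of 109.1, in the own list of replicate 2 alone. Cuticle protein genes gave 0 of 4 in pairs (interval 0 to 60.2%).

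Both genes belonged to the same list in 10 pairs, of which 1 was bound, against 29.1% of all pairs. The vesicle transport pair Cog3/Sec5 was bound with a signal of 103.0. Rrp5/Dis3, Taf10b/Taf10, Ibf2/Ibf1 and Cpr65Ax2/Lcp65Aa were unbound, as were Obp50a/Obp50c, Obp50a/Obp50b, Gr58b/Gr58a, Obp58c/Obp58d and Gr59e/Gr59f. Of these 10 pairs 5 are of chemosensory receptor or odorant-binding protein genes and 1 is of cuticle protein genes, and Obp50a is in 2 of them.

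Unbound means only that no thresholded peak was present. In the joint ranked list, which holds weaker calls too, 848 of the 1179 unbound pairs (71.9%) had a call within the same distance, with a median signal of 33.0 against 162.8 for the strongest call of bound pairs. The other 331 had none. In the unbound pairs 10 calls reached the score of 830 that all thresholded peaks have. Over the arms, 119 of 4818 ranked calls with such a score were missing from the thresholded list. The strongest call in an unbound pair was at eIF4EHP/CG18428 on 3R, 376 bp apart, with a joint signal of 1015, 568.1 in replicate 1 and 446.1 in replicate 2. The gene eIF4EHP encodes a cap-binding repressor of translation. Next was Sirt6/pont, with 738.5 jointly, 347.9 in replicate 1 and 394.0 in replicate 2, where Sirt6 is a sirtuin deacetylase and pont a helicase of remodelling complexes. These values are as high as those of strong bound pairs, and both are counted as unbound by the rule. CG10376/CG10343 (180.9), Ubi-p63E/Sc2 (162.5) and Ide/RhoBTB (147.9) came after them.

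Kept summits sat in sequence poor in G and C. Within 50 bp of the summit the median content was 30.7% (quartiles 25.7 to 39.6), against 34.7% at promoter summits without a partner and 33.7% at summits away from promoters. It followed signal within the kept set, with 26.7% in the strongest 165, 29.7% in the next 165, 32.7% in the next 164 and 37.6% in the weakest 164. At 500 bp to either side it was 50.5% on the left and 49.5% on the right, so the low content was local. Within 50 bp of the midpoint it was 27.7% in bound pairs and 33.7% in unbound pairs.

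**Figure D4:**
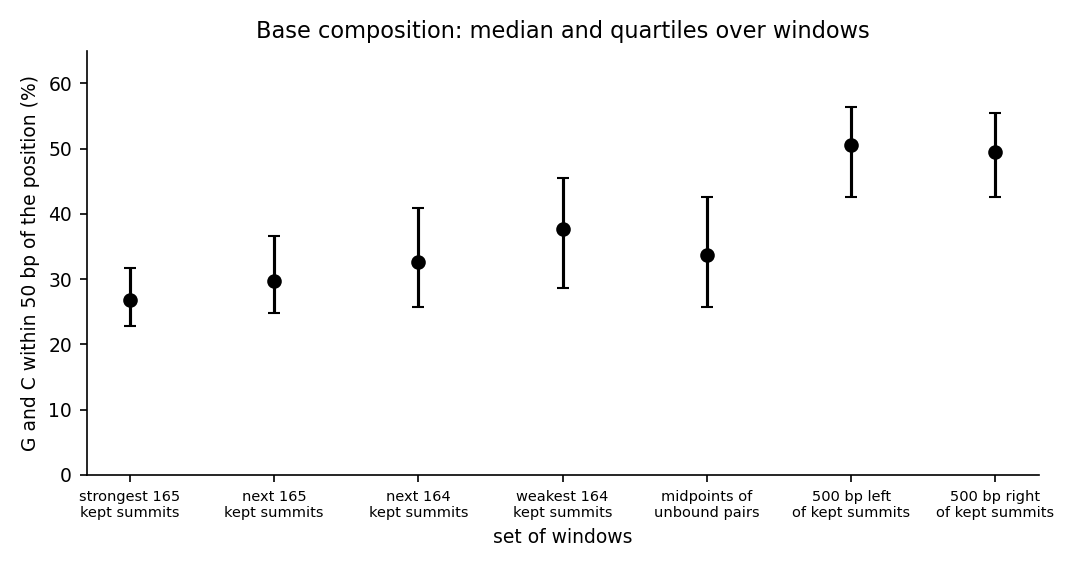
Content of G and C bases within 50 bp of a position (vertical axis, %; points are medians over windows and bars the quartiles) at kept summits in 4 steps of signal, at the midpoints of unbound pairs, and 500 bp to each side of kept summits. The median is 26.7% in the strongest 165 and 37.6% in the weakest 164, against 50.5% and 49.5% at the sides.

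This content also went with the distance between the start sites. Within 150 bp of the midpoint, pairs 1 to 200 bp apart had a median of 37.9% when bound and 39.9% when unbound. At 200 to 300 bp the medians were 35.5% in bound and 34.9% in unbound pairs, and at 300 to 500 bp 29.2% in bound and 30.6% in unbound pairs. At the distance of highest binding, then, the wide window was not poorer in G and C in bound pairs.

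Motif 7 matches were more frequent in bound than in unbound pairs, and matches of the short Initiator core TCAGT less frequent. Motifs were searched on both strands within 150 bp of the midpoint of the pair. Such a window can hold both start sites of a pair, whereas the window of a gene is centred on its own. Motif 7 was matched in 119 of 527 bound pairs (22.6%, interval 19.1 to 26.4%) and in 139 of 1179 unbound pairs (11.8%, interval 10 to 13.8%), with 15.1% of all pairs and 8.87% of windows of the same length at the first start site of all protein-coding genes. By the own list of replicate 1 the shares were 24.3% in bound and 12.2% in unbound pairs, and by that of replicate 2 23.5% and 12.2%. The difference had the same direction in every distance class, with 25.2% against 14.5% at 1 to 200 bp, 34.2% against 16.7% at 200 to 300 bp and 9.64% against 4.44% at 300 to 500 bp. It also had the same direction on the 5 large arms, from 24.3% against 9.09% on 2L to 18.8% against 12.2% on X. In the narrower window within 50 bp of the midpoint the difference was 0.273 percentage points.

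The Initiator core (TCAGT) was matched in 34.9% of bound pairs (interval 30.8 to 39.2%) and 48.5% of unbound pairs (interval 45.6 to 51.4%), against 45.1% of all pairs and 52.4% of all genes' windows. The lower share in bound pairs was present at 1 to 200 bp (37.8% against 48.5%), at 200 to 300 bp (39.6% against 53.3%) and at 300 to 500 bp (28.4% against 44.9%). Of the matches, 51.1% in bound and 47.6% in unbound pairs were within 50 bp of a start site. A match of so short a sequence anywhere in the window need not be an Initiator element.

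The DRE, Motif 1 and Motif 6 showed no such contrast over all distances. The DRE was matched in 16.5% of bound pairs (interval 13.4 to 20%) and 17.8% of unbound pairs (interval 15.7 to 20.1%), against 17.1% of all pairs and 8.53% of all genes' windows. By distance its shares were 15.4% in bound and 22.8% in unbound pairs at 1 to 200 bp, 20.9% against 18.5% at 200 to 300 bp and 13.2% against 10.7% at 300 to 500 bp, so the direction differed between classes. The shorter BEAF-32 core (CGATA) lies within the DRE. It was matched in 60.2% of bound and 62.0% of unbound pairs, against 60.7% of all pairs and 47.7% of all genes' windows. At 1 to 200 bp it was matched in 59.4% of bound and 71.5% of unbound pairs. The shares were 66.8% and 57.8% at 200 to 300 bp, and 54.3% and 52.5% at 300 to 500 bp. The Motif 1 core (GGTCACACT) was matched in 9.49% of bound and 10.3% of unbound pairs, against 10% of all pairs and 5.74% of all genes' windows. At 1 to 200 bp it was matched in 9.79% of bound and 14.5% of unbound pairs. The shares were 15.5% and 11.1% at 200 to 300 bp, and 3.55% and 4.18% at 300 to 500 bp. For these cores, too, the direction differed between classes. Motif 6 was matched in 3.61% of bound and 4.75% of unbound pairs, against 4.36% and 1.93% in the same backgrounds. In these 4 motifs the windows of pairs exceeded those of single start sites, while over all distances bound and unbound pairs had overlapping intervals. What the presence of both start sites in a pair's window adds to that excess was not tested.

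Among the other sequences searched, TATAAA was matched in 56.9% of bound and 51.5% of unbound pairs, against 52.4% of all pairs and 40.0% of all genes' windows. CAGCTG was matched in 23.9% of bound and 21.7% of unbound pairs, against 22.3% of all pairs and 18.1% of all genes' windows. GAGAG was matched in 19.7% of bound and 22.1% of unbound pairs, against 21.4% of all pairs and 30.7% of all genes' windows. A run of 8 A was matched in 19.4% of bound and 16.5% of unbound pairs, against 17.0% of all pairs and 15% of all genes' windows. Over all distances the intervals of bound and unbound pairs overlap for each of these. For the run of 8 A the direction differed by distance, with 23.1% of bound pairs (interval 16.4 to 30.9%) against 10.8% of unbound pairs (interval 8.24 to 13.8%) at 1 to 200 bp, 18.2% against 16.7% at 200 to 300 bp and 17.8% against 23.8% at 300 to 500 bp. The other sequences searched were the E-box CACGTG, the Zelda site CAGGTAG, the Ewg core GCGCATGCG, the CRE element TGACGTCA, the ETS site CCGGAAGT, the E2F forms TTTCGCGC and TTTGGCGC, the STAT site TTCNNNGAA, the Grainyhead site AACCGGTT and a run of 7 G. Each was matched in at most 6.07% of bound and 8.48% of unbound pairs, against at most 7.66% of all pairs and 9.11% of all genes' windows.

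**Figure D5:**
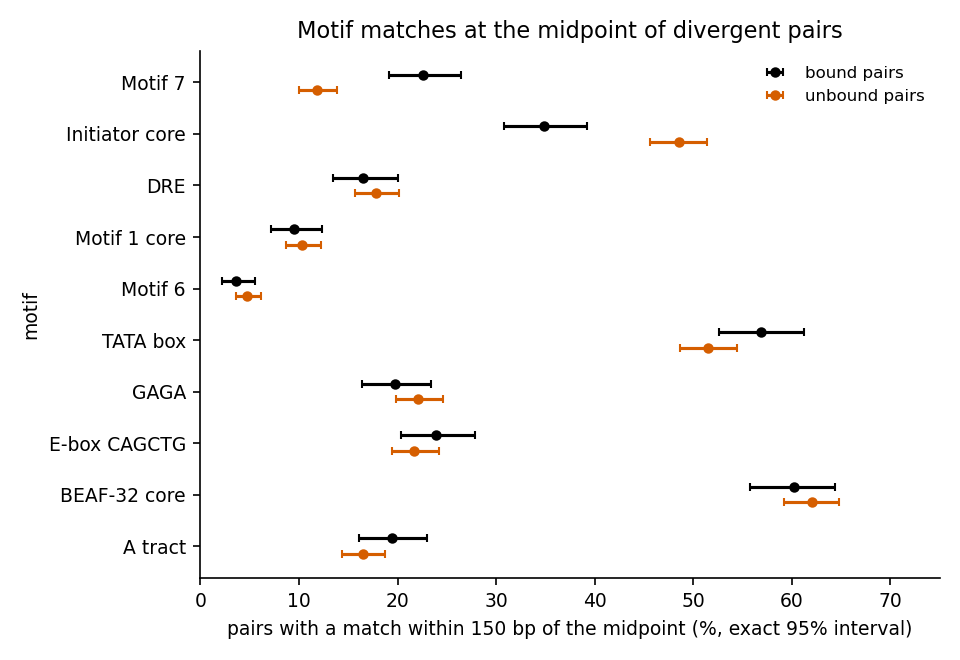
Share of divergent pairs with a motif match within 150 bp of the midpoint (horizontal axis, %, with exact 95% intervals) for bound pairs and unbound pairs, by motif. The intervals are apart for Motif 7 (22.6% against 11.8%) and the Initiator core (34.9% against 48.5%).

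Motif 7 did not mark the summit itself. In bound pairs its 149 matches lay a median of 14 bp upstream of the nearer start site and 105 bp from the summit, and 84.6% were within 50 bp of a start site. Its 150 matches in unbound pairs had the same place, a median of 13.5 bp upstream. Within 50 bp of the summit Motif 7 was matched at 1 of the strongest 165 kept summits (0.606%, interval 0.0153 to 3.33%). It was matched at 6.67% of the next 165, 4.88% of the next 164 and 13 of the weakest 164 (7.93%). The weakest 164 include the 19 summits with a signal under 20 that lay beside a stronger one. The DRE was matched at 0 of the strongest 165, which allows a share of up to 1.82% by a limit of 3 counts and 2.21% by the exact interval. In the following steps of signal it was matched at 3.64%, 5.49% and, in the weakest, 3.66%.

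All sequences of 7 bases were ranked by their difference in share between bound and unbound pairs on 2L and 2R, and the values were then read on 3L, 3R and X. The 10 with the largest excess in bound pairs consist of A and T alone, and all 10 were also higher in bound pairs on the other arms. For AAATAAT the shares were 42.5% of bound and 28.8% of unbound pairs on 2L and 2R, and 43.4% and 27.5% on the other arms. For AAATTAA they were 40.9% and 27.8% on 2L and 2R, and 42.2% and 27.9% on the other arms. These had the largest excess on the other arms, where the 10 ranged from 2.96 to 15.9 percentage points. TAAAAAA, with the largest excess on 2L and 2R (47.3% against 30.9%), had 39.0% against 35.5% on the other arms. The 10 are much alike in sequence, so they are not separate observations. Of the 5 with the largest deficit in bound pairs, 1 was also lower on the other arms, so most deficits were not seen again there. The shares of these sequences were not split by the distance between the start sites, although base content went with that distance. Of the 527 bound pairs 143 were 1 to 200 bp apart, against 509 of the 1179 unbound pairs. What this mix of distances adds on either set of arms was not tested.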

How the data were processed

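ChIP-seq peak lists from 2 biological replicates of 1 group were analysed, on the dm6 assembly per the labels. Per the descriptions deposited with each library, joint lists were made from both libraries' alignments with a control. Which aligner and peak caller were used is not given in the sources used here. Signal per peak, score and the −log10 q-values are the authors' deposited values, and the q-values were not used further. Signal was used to rank peaks within a list, and the score to find calls at or above 830. Depth is unknown. Fragments were 200 to 800 bp, per the labels.

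The stricter joint list held 4746 peaks, and 47 off the arms were left out. Gene models were Ensembl release 115 on BDGP6.54 without transposable elements, and sequence was the RefSeq copy of dm6. A peak was in an own list with an overlap of at least 1 bp. Intervals are exact Clopper-Pearson 95% intervals. In the gene lists, 7 symbols were not matched. Analyses used Python 3.11.15, numpy 2.4.6, pandas 2.3.3 and scipy 1.17.1, with figures by matplotlib 3.10.9, and the counting was tested on simulated data.

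The members and lists were chosen with earlier results of these data known. Named are the pairs of the 15 strongest kept summits in both own lists, the 3 strongest bound pairs of each gene list with at least 3 genes in pairs, pairs with both genes in 1 list, the 5 unbound pairs with the strongest ranked calls, the pairs at the edges of the distance limit and bound pairs with most summits. Of the 15 strongest, 1 pair is not reported here by name. The remaining insulator and Polycomb pairs, and Gr97a/CG5521, were named in full because their lists are short. Motifs, gene lists and the summits near a stronger one are described without a test. Alternatives were the other joint list, each library alone, the upper 50% by signal, merged summits, other distances and other windows.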

Additional observations from a re-analysis of the deposited data

How the results depend on the processing

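No paired analysis was possible because there is 1 group of libraries and no test. Alternatives were compared with the spread between the libraries, which is narrow, so many values count as moved while keeping their direction. The values with either library alone ranged from 23.1 to 24.6% of pairs bound, 72.2 to 73.8% of summits between the start sites, a median signal of 91.4 to 93.7, a median distance 19 to 21 bp greater in bound pairs, a DRE difference of -0.563 to -0.112 percentage points, a G and C difference of -1.33 to -0.997 points, an excess of bound pairs at 200 to 300 bp over up to 200 bp of 18.0 to 18.4 points (17.1 as reported), and a Motif 7 difference of 11.3 to 12.1 points (10.8 as reported). They held 497 to 541 kept summits. The excess by distance and the Motif 7 difference were added as results after seeing the data.

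With the other joint list, 69.4% of summits lay between the start sites, the median signal was 138.1, the DRE difference turned to 0.182, the G and C difference was -0.997, the excess by distance 18.6 and the Motif 7 difference 12.2. In the upper 50% by signal there were 407 kept summits, 19.4% of pairs bound, 73.9% between, a median signal of 218.5, a median distance 16.5 bp greater, a G and C difference of -0.831, 92.6% in both own lists, an excess by distance of 17.5 and a Motif 7 difference of 12.9. With summits within 1 kb counted once, 72.6% lay between, the median signal was 158.7, the DRE difference -0.951 and the excess by distance 17.4.

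With summits within 200 bp of a start site, 27.8% of pairs were bound, 74.2% of summits lay between, the median signal was 145.7, the median distance 26.5 bp greater, the excess by distance 18.7 and the Motif 7 difference 11.5. Within 1000 bp, 31.0% of pairs were bound, 64.1% lay between, the median distance was 26.5 bp greater, the G and C difference -0.997 and the excess by distance 15.5.

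For pairs at most 200 bp apart, 190 summits were kept, 20.8% of pairs were bound, 32.0% of summits lay between, the median signal was 133.7, the median distance difference turned to -11.5 bp, the DRE difference was -7.51 and the G and C difference -2.16; the excess by distance cannot be formed there. At most 1000 bp apart, 27.5% were bound, the median signal was 133.8, the median distance difference turned to -2 bp, the DRE difference was -0.288 and the Motif 7 difference 9.64. With any start site, 69.0% lay between, the median distance was 28 bp greater, the DRE difference -1.71, the excess by distance 17.4 and the Motif 7 difference 10.2.

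Within 50 bp of the midpoint the DRE difference was -4.85, the G and C difference -5.94 and the Motif 7 difference 0.273, and within 250 bp 0.0996, -1.60 and 14.3 in the same order. The causes of these shifts were not tested. Without counts, no difference in binding strength can be given an error beyond the 2 libraries.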
